A study of Homo sapiens with 2 samples.

Results

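The super elongation complex is the assembly of proteins in which the elongation factors of the ELL family work, and 8 genes that encode partners of ELL were examined here for binding of PRDM1. They are AFF1, AFF4, CDK9, CCNT1, MLLT1, MLLT3, EAF1 and EAF2, chosen by name, and a peak was assigned to a gene when its summit lay in the gene body or within 25 kb of it. Of the 9669 PRDM1 peaks in the complete list, 7 met that rule. The cells were U266, a long-established human line of multiple myeloma that the labels call a plasma cell lymphoma. Sites of PRDM1 on DNA were mapped by sequencing of immunoprecipitated chromatin (ChIP-seq), with 1 library from a rabbit monoclonal antibody against PRDM1 (clone C14A4) and 1 library of input DNA made without antibody. The labels name no treatment or genetic change. Both libraries are labelled U266, although the design text of the series speaks of more than 1 myeloma line, the growth protocol also mentions NCI-H929, and the alignments were merged before calling. Within these labels there was no condition to compare and no replicate. Positions, tags, folds, scores and FDR values are those the authors deposited. Expected tags, ratios to the input, input background and summit heights were solved from them, and intervals cover counting error only. Peak data hold no expression, so the identity of the line was not checked against markers.

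RNA polymerase II often pauses soon after it starts a gene, and the paused enzyme is released when the kinase CDK9, bound to a cyclin T in the pair called P-TEFb, phosphorylates the polymerase and the factors that hold it. The super elongation complex joins P-TEFb to an ELL protein, which speeds the moving polymerase, on a flexible scaffold of the AFF family. It also holds MLLT1 (ENL) or MLLT3 (AF9), which read acylated histones through a YEATS domain, and the EAF proteins, which bind ELL. PRDM1, or BLIMP-1, is a zinc finger protein that represses transcription and directs B cells into plasma cells. Among the ELL proteins, ELL2 is known for its part in the processing of immunoglobulin messages in plasma cells. The series title concerns ELL3 in activated B lymphocytes, and the question examined here is whether the genes for the other subunits carry PRDM1 sites.

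PRDM1 peaks were found at 6 of the 8 genes, and the other 2, EAF1 and EAF2, had none. Over genome windows of the same lengths, the mean share with a peak was 28.5%. Those windows include gene-poor stretches, so the count of 6 is not a finding about these 8 genes. None of the 7 peaks was in the authors' filtered list, which keeps peaks of 50 tags or more with a false discovery rate (FDR) up to 5% and which holds 887 peaks, 9.17% of the complete list. At that share 0.642 of 7 peaks would be in it, so having none does not set these peaks apart. The FDR sets the number of peaks found with ChIP and input exchanged against the number found without that exchange, at equal or higher score. The limit of 5% was passed by 3 of the 7 peaks, against 43.5% of all peaks, so the share among the 7 was near that of the whole list. Those 3 lay at MLLT3, CDK9 and AFF4.

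The median number of tags of the 7 peaks was near that of the complete list, with peaks on both sides of it. A tag is 1 aligned ChIP read left after removal of duplicates. The 7 peaks held 10 to 21 tags with a median of 14, where all peaks had a median of 15 and the filtered peaks, chosen for their tags, a median of 72. Both peaks of 10 tags, at CCNT1 and inside MLLT3, were near the bottom of the list, where 3.43% of all peaks held fewer. The 3 peaks of 20 or 21 tags, at CDK9, AFF4 and upstream of MLLT3, had 64.7 to 67% of all peaks below them. Their widths ran from 417 to 847 bp, with a median of 770 bp against 724 bp for all peaks. The deposited fold, which is the summit height over the local input background, had a median of 8.49 over the 7 peaks, 11 over all peaks and 31.4 over the filtered peaks. By score they ran from the CCNT1 peak, above 20.2% of the list, to the upstream MLLT3 peak, above 78% of it.

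**Figure D1:**
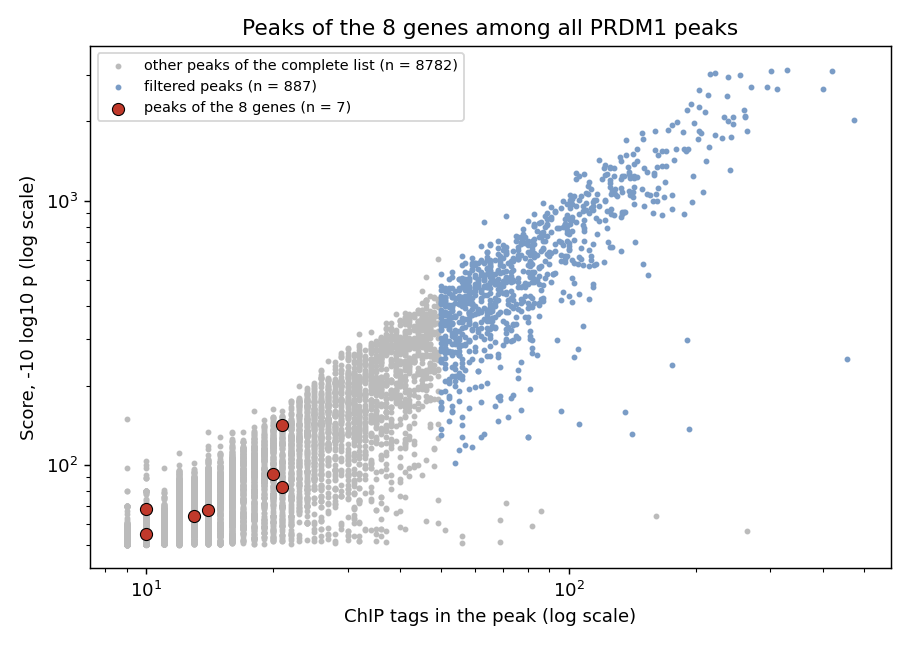
Each point is 1 PRDM1 peak, with its ChIP tags on the horizontal axis and its score, −10 times log10 of the caller's p, on the vertical axis, both on log scales. The 7 red points, the peaks of the 8 genes, hold 10 to 21 tags and sit to the left of the 887 filtered peaks in blue, which begin at 50 tags.

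How many such peaks a window holds depends on its length. The 8 windows, gene bodies with both flanks, covered 1.14 Mb and held 6.13 peaks per Mb (95% exact Poisson interval 2.46 to 12.6), and the genome as a whole held 3.12 per Mb. The genome value lies inside that interval. At the mean density of the genome 3.56 peaks were expected in the 8 windows, and at the mean density of each gene's own chromosome 3.65. When every chromosome was divided into consecutive windows of the same length as a gene's window, the share that held a peak was 14.4% at the length of CDK9, 16.5% for EAF1, 19.5% for CCNT1, 23.7% for EAF2, 27.1% for MLLT1, 29.9% for AFF4, 45% for AFF1 and 51.6% for MLLT3. These shares add up to 2.28 genes with a peak, against the 6 found. Windows spread over the genome include gene-poor stretches, and windows around genes in general were not analysed here, so this count is not a finding about these 8 genes. For peaks at an FDR of at most 5% the same shares ran from 6.67% (CDK9) to 29.5% (MLLT3), or 11.2% over the windows of all 8 lengths together, and added up to 1.18 genes, against 3 found. For filtered peaks they ran from 1.51% to 8.03%, or 2.7% over all lengths, and added up to 0.296 genes, against 0 found. Fewer than 1 of the 8 genes would thus hold a filtered peak at the mean density of the genome.

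**Figure D2:**
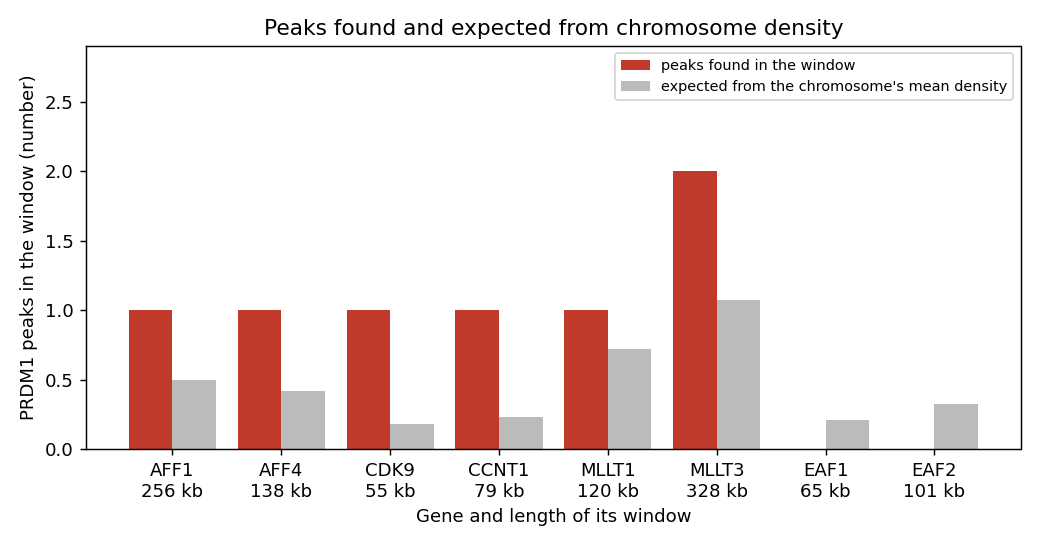
Red bars give the number of PRDM1 peaks found in the window of each gene, and grey bars the number expected from the mean density of the gene's chromosome over a window of the length printed under the name. MLLT3 held 2 peaks where 1.07 were expected, EAF1 and EAF2 held none where 0.207 and 0.322 were expected, and the other 5 genes held 1 each.

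No summit lay at the start of any of the 8 genes. Of the 7 summits, 3 lay in a gene body, 4 lay upstream of a gene start and 0 lay downstream of a gene end. The shares of all peaks by place were not measured, so this split is a description and shows no preference for a side. The nearest to a start was 6.5 kb away, at CDK9, and it was the only 1 within 10 kb of a start. Gene edges were given to the nearest 1 kb, so distances carry an error of that order. The start used here is the outer edge of the gene body. RefSeq's GRCh38 annotation also lists a second start further inside AFF1 and inside CCNT1, and distances from those were not measured. Coordinates below are GRCh37.

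**Figure D3:**
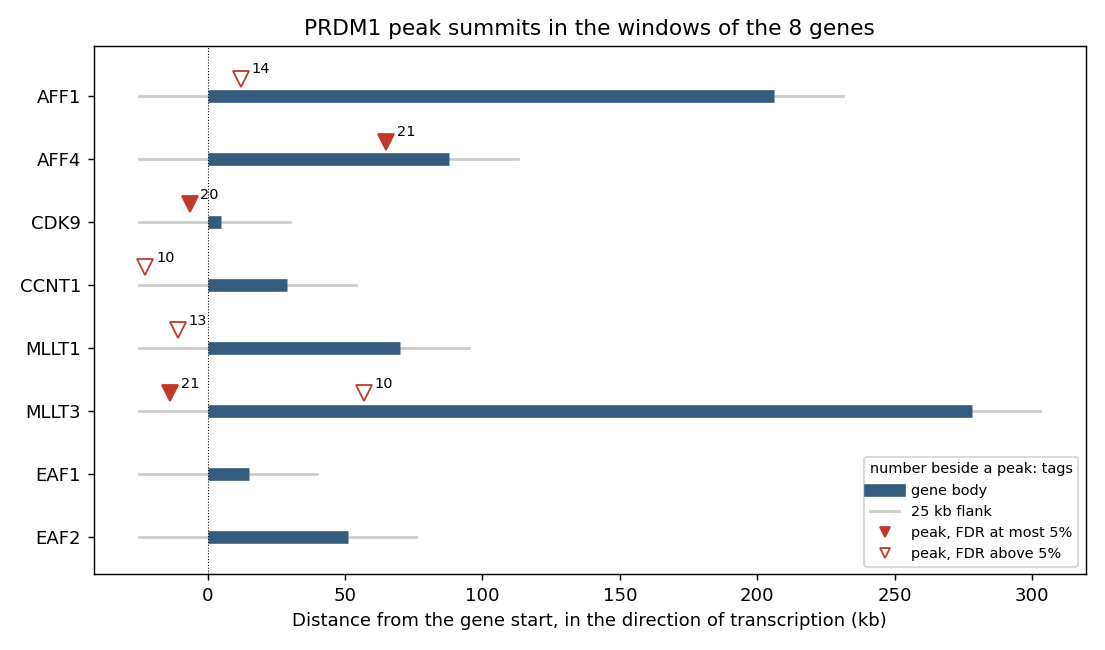
Each row is 1 gene drawn from its start in the direction of transcription, in kb, with the gene body in blue and the 25 kb flanks in grey. Triangles mark the summits of PRDM1 peaks with their tags beside them, filled where the FDR was at most 5%. The filled triangles are upstream of CDK9 and MLLT3 and inside AFF4, and no triangle stands at the dotted line of the gene starts.

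The scaffold genes AFF1 and AFF4 each had 1 peak inside the gene body. AFF1 and AFF4 encode long, largely disordered proteins on which the other subunits assemble, and AFF1 is also known as a fusion partner of KMT2A in infant leukaemia. AFF1 (gene ID 4299, chromosome 4, 87856 to 88062 kb, plus strand) had its peak from 87867780 to 87868549, with the summit 12.2 kb downstream of the outer start. That peak held 14 tags with a fold of 11.25 and an FDR of 12.83%. The input predicted 3.08 tags over the width of this peak after the ChIP tags were scaled to the size of the input library, and the scaled tags were 4.87 times that number (95% Poisson interval 2.73 to 8.03). Its FDR is above the 5% limit, and 43.3% of all peaks had a lower score. The next peak that passed the limit was 487.8 kb from the AFF1 start.

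AFF4 (gene ID 27125, chromosome 5, 132211 to 132299 kb, minus strand) had its peak from 132233681 to 132234527, with the summit 65.1 kb into the gene. The AFF4 peak held 21 tags, 4.33 times the expected number (2.71 to 6.55), with a fold of 8.33 and an FDR of 4.21%. It passed the 5% limit narrowly and had the lowest ratio to the input of the 7 peaks, with the highest input background, 6 tags per kb or 1.89 times the genome mean. More tags than at AFF1 thus came with a higher local background, and the intervals of both ratios overlap.

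Of the P-TEFb genes, CDK9 had a peak that passed the FDR limit and CCNT1 one that did not. CDK9, the kinase of P-TEFb (gene ID 1025, chromosome 9, 130548 to 130553 kb, plus strand), is the shortest of the 8 genes. Its peak ran from 130541243 to 130542020, with the summit 6.5 kb upstream of the start. The CDK9 peak held 20 tags, 5.09 times the expected number (3.15 to 7.79), with a fold of 8.49 and an FDR of 2.28%, and 64.6% of all peaks had a lower score. The next protein-coding gene on that side in RefSeq's GRCh38 annotation is SH2D3C. The distance of the summit from SH2D3C was not measured, since no annotation of GRCh37 was used here. Whether the peak lies nearer to SH2D3C than to CDK9 was therefore not determined, and it cannot be assigned to CDK9 alone.

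CCNT1, the gene for cyclin T1 (gene ID 904, chromosome 12, 49082 to 49111 kb, minus strand), had a peak from 49133484 to 49134055, with the summit 22.7 kb upstream of the start on the side of SPMIP11. The CCNT1 peak held 10 tags, 5.52 times the expected number (2.65 to 10.1), with a fold of 7.89. Its FDR was 37.96%, the highest of the 7 peaks, and the summit lay just inside the 25 kb limit. It was the weakest of the 7 by score. The nearest peak at an FDR of at most 5% was 431.2 kb from the CCNT1 start.

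The reader genes MLLT1 and MLLT3 both had a peak upstream of the start, and the one at MLLT3 was the strongest of the 7. MLLT3 (AF9, gene ID 4300, chromosome 9, 20344 to 20622 kb, minus strand) is the longest of the 8 genes and the only one of them with 2 peaks. The upstream peak ran from 20635165 to 20635960, with its summit 13.7 kb from the start on the side of FOCAD. It held 21 tags where the input predicted 2.52, a ratio of 8.72 (5.47 to 13.2), with a fold of 18.93 and an FDR of 0.19%. Its rank by score was 2126 of 9669. The other MLLT3 peak lay inside the gene from 20564985 to 20565401, 56.8 kb from the start, with 10 tags, a fold of 12.62 and an FDR of 12.41%. Its ratio of 7.57 (3.63 to 13.9) cannot be told from that of the upstream peak at this depth. For both MLLT3 peaks and that of CCNT1 the solved background was 3.17 input tags per kb, the genome mean, which is the lowest value the caller's rule allows. The local input there was thus at or below the mean. A value within 2% of it was solved for 31.2% of all peaks.

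MLLT1 (ENL, gene ID 4298, chromosome 19, 6210 to 6280 kb, minus strand) had its peak from 6290506 to 6291223, with the summit 10.9 kb upstream of the start on the side of ACER1. The MLLT1 peak held 13 tags, 4.87 times the expected number (2.66 to 8.18), with the lowest fold of the 7, 7.5, and an FDR of 17.18%. It did not pass the 5% limit. Chromosome 19 carries 5.99 peaks per Mb, the highest density among the chromosomes of the 8 genes, and at that density 0.718 peaks were expected in the window of MLLT1.

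**Figure D4:**
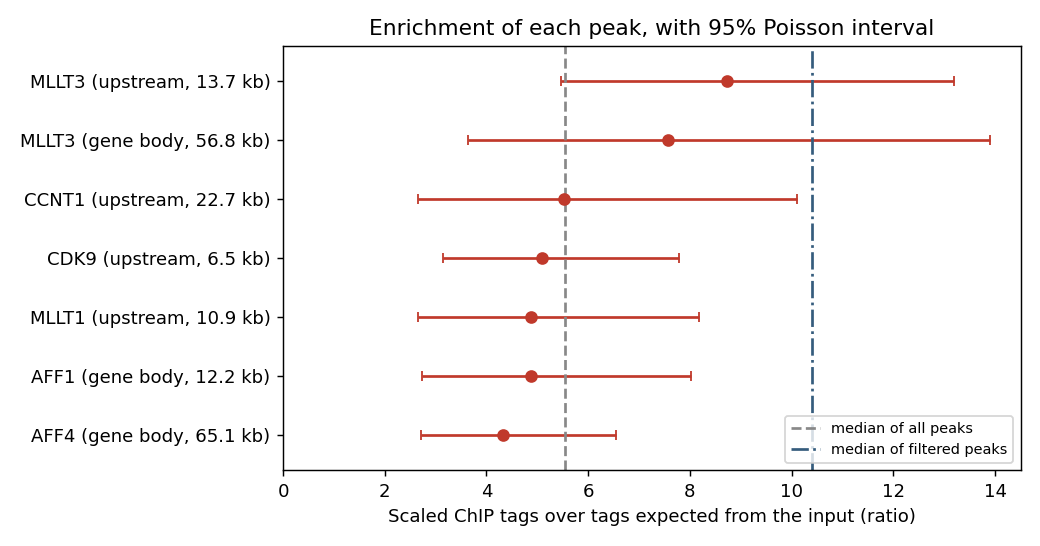
Points give for each of the 7 peaks the ChIP tags, scaled to the input library, over the tags expected from the input, and bars the 95% Poisson interval of the tags; place and distance from the gene start are in the label. The ratios run from 4.33 at AFF4 to 8.72 upstream of MLLT3, the intervals overlap one another, and 5 of the 7 points lie below the median of all peaks, 5.54 (dashed).

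The ELL-associated factors EAF1 and EAF2 had no peak in their windows. Both encode small proteins that bind ELL and raise its activity. EAF1 (gene ID 85403, chromosome 3, 15469 to 15484 kb, plus strand) had its nearest peak 74.1 kb upstream, from 15394626 to 15395198, with 10 tags and an FDR of 38.23%. EAF2 (gene ID 55840, chromosome 3, 121554 to 121605 kb, plus strand) had its nearest peak 195.9 kb downstream of the start, from 121748975 to 121750483, with 44 tags and an FDR of 0.09%. That peak is stronger than any of the 7, although it fell short of 50 tags. The windows of EAF1 and EAF2 were 65 and 101 kb long, so having no peak does not set these genes apart. The smallest peak of the list held 9 tags. The tags that a site needs to be called also depend on its width and local background, so weak sites could have been missed. The depth was 7854466 ChIP tags and 8556458 input tags after removal of duplicates.

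Among the 7 peaks, the FDR limit of 5% fell between the lower and the higher tag counts. The score behind the FDR is computed from the tags, so part of this link is built in. The 4 peaks of 10 to 14 tags all had an FDR above 5%, and of all 4414 peaks with so many tags 8.65% passed that limit. The 3 peaks of 20 or 21 tags all passed, against 66.7% of the 399 peaks with as many. These tag classes were chosen after the values were seen, and within each class the FDR of the 7 peaks did not strictly follow their tags. The ratio to the input had a median of 5.09 over the 7 peaks, against 5.54 over all peaks and 10.4 over the filtered peaks. At their summits, the 7 peaks reached a height of 5 to 12 overlapping tags with a median of 9, the same median as all peaks. The filtered peaks had a median height of 31.

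The promoters of the 8 genes were read from RefSeq (GRCh38.p14), where all 8 had an entry and 10 starts in all. PRDM1 is known to bind DNA with a GAAAG core, and each promoter, 250 bases before to 50 after the start, was searched for AGNGAAAG on both strands (CTTTCNCT on the other). One promoter of the 10 held a match, that of a second start of AFF1, and 7.99% of the 35116 promoters in RefSeq's table did. The looser motif GAAAGT, which shares the letters GAAAG with the first and can overlap it, was found in 0 of the 10 and in 13.3% of all promoters. A match is a run of letters and not a site, and the nearest summit to any of the 8 outer gene starts was the one 6.5 kb from CDK9. The distance of the AFF1 summit from the second start was not measured. The AFF1 sequence is shown because it holds the single match, in capitals, 189 bases before the start, and that of MLLT3, with no match, because this gene had the strongest peak upstream of its start. Both run 5′ to 3′ along the strand of the gene and end at the last base before the start, AFF1 on the plus strand at chr4:87007021-87007270 and MLLT3 on the minus strand at chr9:20622500-20622749 of GRCh38.p14, a build other than that of the peaks.
AFF1, second start: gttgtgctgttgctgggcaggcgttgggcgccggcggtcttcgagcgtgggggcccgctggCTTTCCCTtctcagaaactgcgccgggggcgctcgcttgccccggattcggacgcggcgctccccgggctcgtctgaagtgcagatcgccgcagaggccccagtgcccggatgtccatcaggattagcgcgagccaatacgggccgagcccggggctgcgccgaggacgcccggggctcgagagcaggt
MLLT3: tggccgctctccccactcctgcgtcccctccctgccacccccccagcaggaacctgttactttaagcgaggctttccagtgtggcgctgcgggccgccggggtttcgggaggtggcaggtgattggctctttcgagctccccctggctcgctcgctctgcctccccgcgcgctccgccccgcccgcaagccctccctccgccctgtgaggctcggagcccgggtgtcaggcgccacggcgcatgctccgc
The GC content of these stretches was 71.2% for AFF1 and 72% for MLLT3, where the median of all promoters was 58%. The peaks themselves are not shown as sequence, since no genome of their build was used here.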

How the data were processed

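PRDM1 ChIP and input DNA of U266 cells, 1 library each, were used. The submitters' processing notes name MACS 1.4, Bowtie 0.12.7 and CASAVA 1.8.2. Peaks were called by MACS 1.4.1 on merged alignments with a p cutoff of 1.00e-05, per the file headers. Tag counts per peak are raw counts after removal of duplicates, per the file headers. The score is −10 times log10 of the caller's p, the fold is the ratio of summit height to local background, and the FDR is a percent, all as deposited by the authors. The libraries held 7954355 and 8638074 tags, of which 7854466 and 8556458 were kept. The labels and headers name no genome build. All peaks fitted the chromosome lengths of GRCh37, while 53 ran past those of GRCh38 and 88 past those of NCBI36 (lengths typed from general knowledge), so coordinates are given as GRCh37.

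Summits were placed at start plus summit offset. Gene bodies were taken to the nearest kb, and strands, promoters and neighbouring genes from RefSeq (GRCh38.p14). Their lengths differed from those of RefSeq by at most 2.8 kb. Expected tags were solved from the deposited score as the Poisson mean that gives it, with ChIP tags scaled by 1.09 and rounded down. Expected tags were then scaled from the peak width to the fragment length of 200 bp and multiplied by the fold. This gave whole summit heights, within 0.06 tags, for 98.7% of 9667 peaks and for all 7 peaks described. The solving step was checked on simulated scores made with the same Poisson formula, with no background below the genome mean. That check could not show whether the caller scored peaks in this way. Analyses used Python 3.11.15, pandas 2.3.3 and scipy 1.17.1. No test was run, since there was 1 library of each kind. All 8 genes and all their peaks were named. The genes and lists were chosen with earlier results of these data known. The list of other elongation genes was not placed, because no annotation of GRCh37 was used here.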

Additional observations from a re-analysis of the deposited data

How the results depend on the processing

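Judging membership by any overlap of 1 bp or by the peak centre gave the same 7 peaks in number, 6 genes and 3 peaks below the FDR limit. The numbers followed the flank and the list by construction. With the gene body alone there were 3 peaks at 3 genes, 1 of them at an FDR of at most 5%. With 10 kb flanks there were 4 peaks. With 100 kb flanks there were 15, of which 6 had an FDR of at most 5% and 1 was in the filtered list. Restricting the list to an FDR of at most 5% left 3 peaks at 3 genes, and the filtered list left 0 peaks at 0 genes, a density of 0 per Mb. Of the 7 peaks, 1 passed an FDR of 1% and 6 passed 20%. Within 10 kb of a gene start, a window added after seeing the data, there was 1 peak at 1 gene. The motif GAAAGT matched 0 of the 8 genes, against 1 for AGNGAAAG. The other 33 of 50 recomputed values stayed within 1.5 times of the reported one or, for densities, within its interval. The median number of tags over the filtered list could not be given, since no peak was left. No paired analysis was possible because ChIP and input were 1 library each. Depth limits the smallest peaks, and a deeper library was not analysed here.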

Other observations

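Between 25 and 100 kb from the 8 gene bodies lay 8 further peaks, at 4 of the genes, and 4 of these were downstream of CDK9. The strongest lay 60.8 kb beyond the end of CDK9, on chromosome 9 from 130612844 to 130615054, and held 73 tags, 7.77 times the expected number, with a fold of 16.3 and an FDR of 0%. It was the only filtered peak within 100 kb of any of the 8 genes. The other 3 on the CDK9 side lay 27.6, 37.9 and 88.4 kb beyond the gene, with 16, 21 and 23 tags and FDR values of 37.98%, 23.34% and 0.36%. With the peak upstream of the CDK9 start, 5 peaks lay in a window of 205 kb, and the mean density of chromosome 9 would give 0.669. CDK9 was singled out after its surroundings were seen, so the difference is a description only. In RefSeq's GRCh38 annotation the next protein-coding gene downstream of CDK9 is FPGS. Which gene each of these peaks lies nearest to was not determined, so they are not assigned to CDK9. For the remaining genes the nearest filtered peak was 390.4 kb (MLLT1) to 2179.4 kb (AFF1) from the gene start. For EAF2 it lay 402.8 kb upstream of the start, from 121150090 to 121151804, with 111 tags and a fold of 88.35.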
